A study of Mus musculus with 7 samples.

Results

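Polycomb proteins are a set of chromatin regulators that keep genes silent, and the transcripts of 10 genes that encode them are described here: the PRC2 genes Ezh1, Ezh2, Eed, Suz12, Jarid2 and Mtf2, and the PRC1 genes Ring1, Rnf2, Pcgf6 and Kdm2b. They were chosen by symbol, through the Ensembl identifiers of the count table, and make up 10 of its 52636 genes. All 10 passed the filter on low counts. RNA was sequenced from 7 pools of 10 inner cell masses (ICMs) each, isolated by immunosurgery from mouse blastocysts that the labels call epiblast at embryonic day E3.5. Every group carried the genotype Sox2Cre;CRAFR26, which pairs a Cre driven by Sox2 with a tamoxifen-inducible CRAF construct that switches on ERK, so there was no group without the construct. Every group also spent 24 h from E2.5 in KSOM medium with the FGF receptor inhibitor PD173074 (250 nM). The tamoxifen group held 4 pools given 250 nM 4-hydroxytamoxifen (4OHT) for 4 h, 2 from clone 4 and 2 from clone 8 of the targeted embryonic stem cells. The vehicle group held 3 pools given ethanol for 4 h, 2 from clone 4 and 1 from clone 8, and carries the time label 0 h. The labels do not say that pools came from separate litters or days, so p-values measure the spread between these pools.

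PRC2 places methyl groups on histone H3 at the residue called H3K27, through Ezh2 or its paralog Ezh1. Eed and Suz12 are core subunits that the enzyme needs, and Jarid2 and Mtf2 belong to alternative forms of PRC2 that bind chromatin differently. PRC1 adds ubiquitin to histone H2A through the paralogs Rnf2 (also called Ring1b) and Ring1. Pcgf6 and Kdm2b belong to different variant PRC1 complexes, and Kdm2b binds unmethylated CpG dinucleotides. In embryonic stem cells both complexes sit on silent developmental genes.

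Total counts per library ranged from 22981498 to 42294719, and the 10 genes had between 90 counts (Ring1 in tamoxifen clone4_2) and 37600 counts (Jarid2 in vehicle clone8_1). Vehicle clone8_1, the single vehicle library of its clone, stood apart by low counts of short transcripts. On the log2 scale, 1164 protein-coding genes with transcripts under 1000 nt lay at a median of -1.29 relative to the middle library, and 11915 genes with longer ones at 0.000999. The 10 genes have median transcript lengths from 2034 nt (Ring1) to 5019 nt (Jarid2). The labelled tissue, epiblast, was checked against its markers, and the libraries held transcripts of other lineages too, although immunosurgery removes the trophectoderm. All 10 trophectoderm markers were tested, their summed level ranged from 8530 to 11227.5 CPM in vehicle and from 6546 to 9534 CPM in tamoxifen libraries, and all 10 had lower estimates with tamoxifen. Of 10 naive epiblast markers 9 were tested, with summed levels from 1665 to 2044 CPM in vehicle and from 1708 to 2199 CPM in tamoxifen libraries, and Nr0b1 reached at most 1.12 CPM. Of 10 primitive endoderm markers 9 were tested, with summed levels from 845 to 1148 CPM and from 884 to 1031 CPM, and Sox7 reached at most 0.431 CPM. The part of these other cell types in the results was not tested. In pooled tissue, fewer cells of a type and less RNA per cell cannot be told apart.

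The sequence upstream of the start was read for the 10 genes, since Kdm2b and Mtf2 bind DNA that is rich in CpG and ERK acts on genes through transcription factors such as the ETS and AP-1 families. RefSeq promoters of build GRCm38.p6 matched all 10 genes by symbol, with 15 start sites. Over the 250 bases before each start, the 15 windows held a median of 23 CpG dinucleotides (range 2 to 38), and the 32851 promoters of the mouse table held a median of 6. The lowest value belonged to the second start of Mtf2, and the first start of that gene had 23. Annotated exon covers all 250 bases of the Eed window, 125 of the Ezh2 window, and 207, 29 and 5 bases in windows of Kdm2b. The Kdm2b windows at chr5:122900351-122900600 and chr5:122900368-122900617 overlap, so the 15 are not all separate sequences. Shown are the windows of both PRC1 ligase paralogs and of Ezh1, in which CpG dinucleotides are in capitals. They were picked because the paralog shares and the values within clones given below turn on these genes, and because no annotated exon lies in them.
Rnf2 (chr1:151500992-151501241, minus strand, GRCm38.p6): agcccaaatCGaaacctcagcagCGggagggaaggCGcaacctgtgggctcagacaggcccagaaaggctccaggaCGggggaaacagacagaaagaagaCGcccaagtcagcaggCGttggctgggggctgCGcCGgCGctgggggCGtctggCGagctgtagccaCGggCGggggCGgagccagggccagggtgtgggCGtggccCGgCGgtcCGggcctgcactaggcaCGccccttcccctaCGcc
Ring1 (chr17:34024681-34024930, minus strand, GRCm38.p6): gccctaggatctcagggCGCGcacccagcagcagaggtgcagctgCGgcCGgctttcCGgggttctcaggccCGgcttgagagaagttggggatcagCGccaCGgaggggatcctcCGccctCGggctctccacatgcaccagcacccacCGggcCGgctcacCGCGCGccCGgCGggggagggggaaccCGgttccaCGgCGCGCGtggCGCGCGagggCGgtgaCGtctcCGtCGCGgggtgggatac
Ezh1 (chr11:101226464-101226713, minus strand, GRCm38.p6): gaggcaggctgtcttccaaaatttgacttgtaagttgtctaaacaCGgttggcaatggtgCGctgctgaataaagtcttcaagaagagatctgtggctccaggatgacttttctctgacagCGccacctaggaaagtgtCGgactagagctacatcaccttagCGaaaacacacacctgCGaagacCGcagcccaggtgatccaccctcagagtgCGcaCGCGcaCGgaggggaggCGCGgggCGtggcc

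These windows hold 20 CpG dinucleotides for Rnf2, 30 for Ring1 and 14 for Ezh1, and 82.1%, 94.1% and 70.6% of all promoters have fewer. Both strands were searched for CCGGAAG, which ETS factors bind, and it was found in 0 of the 15 windows and in 6.91% of all promoters. TGANTCA, the AP-1 motif, was in 0 of 15 windows and in 6.75% of all promoters. CACGTG, the E-box bound by Max and Mga, partners of Pcgf6, was in 0 of 15 and in 6.02%. TTCCCGCC, an E2F motif, was in 0 of 15 and in 1.86%. The absence says only that these letters are not in these windows.

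The levels of the 10 transcripts were compared per length, as RPKM (CPM per kilobase of transcript, where CPM is the count scaled to library size). The order had the accessory PRC2 subunits at the top and Ring1 at the bottom. Mtf2 had a mean level of 184 ± 13.7 RPKM and Jarid2 of 179 ± 27.8 RPKM (SD, n = 7), which placed them above 95.8% and 95.7% of the 16248 genes tested. Mtf2 was the higher of this pair in 5 of 7 libraries, and their ranges overlapped. Eed followed at 94.7 ± 17.4 RPKM (SD, n = 7), below both in every library. It binds the methylated histone that PRC2 itself makes.

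The remaining core and ligase genes formed a lower tier. Suz12 had 32.9 ± 10.0 RPKM, Rnf2 29.3 ± 4.53 RPKM and the catalytic gene Ezh2 22.7 ± 2.76 RPKM (SD, n = 7). Suz12 was above Rnf2 in 4 of 7 libraries and Rnf2 above Ezh2 in 6, and the ranges of both pairs of neighbours overlapped. Eed was thus 2.88 times the level of Suz12, its partner in the PRC2 core, with no overlap between the 7 values of each. Kdm2b had 14.9 ± 1.64 RPKM, with all its values under those of Ezh2, and Ezh1 11.05 ± 3.59 RPKM (SD, n = 7), with ranges that overlapped. Pcgf6 had 7.06 ± 1.63 RPKM and Ring1 3.51 ± 2.15 RPKM (SD, n = 7). Ring1 was under Pcgf6 within every library, although their ranges overlapped. With the longest transcript of each gene as its length the order of the means was the same, but Jarid2 (longest transcript 8353 nt) came to 107 RPKM and Mtf2 to 136 RPKM. Jarid2 was then above Eed in 5 of 7 libraries, so its distance from Eed and its closeness to Mtf2 depend on the length used. Without both libraries numbered clone8_1, Jarid2 was first and Mtf2 second, and Rnf2 had rank 4 and Suz12 rank 5.

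**Figure D1:**
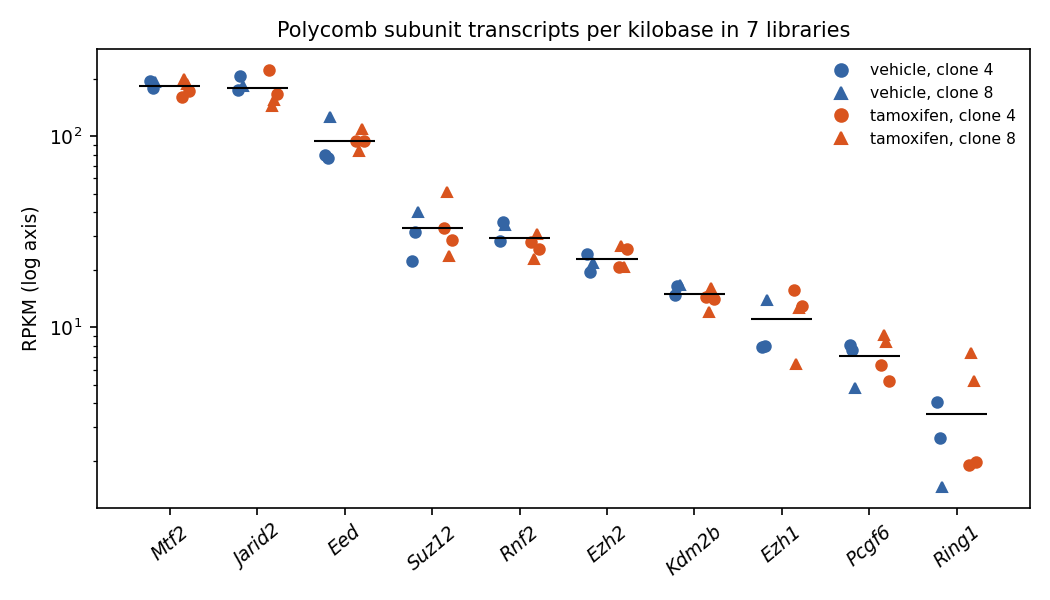
Level of each Polycomb subunit transcript in RPKM (log axis), with 1 point per library (blue vehicle, orange tamoxifen; circles clone 4, triangles clone 8) and a line at the mean of the 7 libraries. Mtf2 and Jarid2 sit at 184 and 179 RPKM and Ring1 at 3.51 RPKM, and vehicle and tamoxifen points overlap for every gene.

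Pairs of genes were set against each other within libraries, as a description without a test. They were the paralogs Ezh2 and Ezh1, the paralogs Rnf2 and Ring1, and the accessory subunits Jarid2 and Mtf2, which are not paralogs. Ezh2 made up 69.1 ± 7.41% of the summed RPKM of Ezh2 and Ezh1 in vehicle (SD, n = 3) and 66.5 ± 10.2% in tamoxifen libraries (SD, n = 4), so Ezh1 transcripts were a minority in every library. The share of Ezh2 was 75.4% (clone4_1), 70.9% (clone4_2) and 60.9% (clone8_1) in vehicle libraries. In tamoxifen clone4_1, clone4_2, clone8_1 and clone8_2 it was 66.4%, 56.9%, 80.7% and 62.2%. The tamoxifen values lay on both sides of the vehicle values. Rnf2 was the dominant ligase gene, with 92.1 ± 4.34% of the sum of Rnf2 and Ring1 in vehicle (SD, n = 3) and 86.9 ± 8.37% in tamoxifen libraries (SD, n = 4). Its lowest share, 75.6%, was in tamoxifen clone8_1, and its highest, 95.9%, in vehicle clone8_1. Jarid2 and Mtf2, which mark alternative forms of PRC2, were near parity: the share of Jarid2 was 49.95 ± 3.39% in vehicle (SD, n = 3) and 48.5 ± 6.92% in tamoxifen libraries (SD, n = 4), with a range from 41.9% to 57.9%. Lengths matter for these shares, since in counts without lengths Jarid2 held 61.6% of its pair and Ezh2 57.9% of its own.

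**Figure D2:**
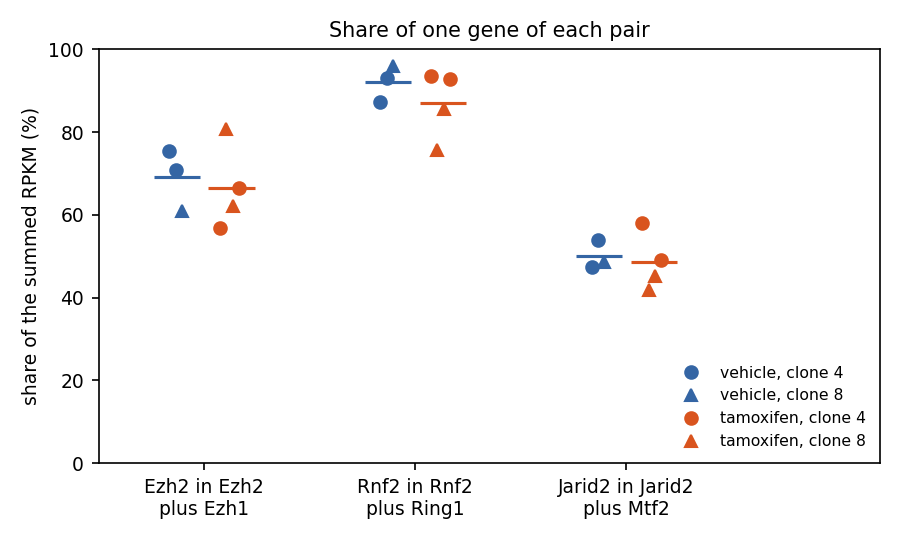
Share (%) of one gene in the summed RPKM of a pair, 1 point per library (blue vehicle, orange tamoxifen; circles clone 4, triangles clone 8), with lines at the group means. Rnf2 holds between 75.6% and 95.9% of its pair, Ezh2 between 56.9% and 80.7%, and Jarid2 between 41.9% and 57.9%, and the groups overlap in each pair.

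The main comparison asked whether these transcripts differed between 4 h of 4OHT and vehicle. As no group lacked the construct, effects of ERK activation and of 4OHT itself cannot be told apart. None of the 10 genes passed the test: 0 of 10 were called by edgeR (quasi-likelihood) at a Benjamini-Hochberg adjusted p under 0.05, and 0% of all 16248 genes were. At an unadjusted p under 0.05 there were again 0 of 10, where all genes gave 5.97% (2.69% higher and 3.28% lower with tamoxifen). DESeq2 called 0 of 10 and gave 0 of 10 at an unadjusted p under 0.05. The groups overlapped for all 10 genes, where 8.45% of all genes did not overlap. Point estimates were higher with tamoxifen for 6 genes and lower for 4, with a median log2 fold change of 0.053, against 0.019 over all genes tested. The median size of the estimate regardless of sign was 0.13 for the 10 genes and 0.31 for all genes. Their standard errors were also smaller, with a median of 0.19 against 0.37, and neither comparison was matched for level. Beside this, all 10 trophectoderm markers had lower estimates with tamoxifen, 3 of them with an unadjusted p under 0.05. Of the naive epiblast markers 7 of 9 had higher estimates (median 0.37), 1 of them (Klf4) with an unadjusted p under 0.05, and of the primitive endoderm markers 6 of 9 (median 0.49), 2 of them (Sox17 and Lama1) with an unadjusted p under 0.05.

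Among the catalytic and core PRC2 genes, Ezh2 (ENSMUSG00000029687, chromosome 6, 47530139 to 47595341, minus strand) varied little, with a coefficient of variation of 12.2% over the 7 libraries. The vehicle libraries clone4_1, clone4_2 and clone8_1 had 65.6, 52.7 and 59.1 CPM, against 69.6, 56.5, 72.6 and 56.3 CPM in tamoxifen clone4_1, clone4_2, clone8_1 and clone8_2. The groups overlapped, with the 2 highest values in tamoxifen libraries. Its log2 fold change was 0.11 ± 0.17 (SE; 95% interval -0.28 to 0.49; adjusted p = 0.897, edgeR).

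Ezh1 (ENSMUSG00000006920, chromosome 11, 101191115 to 101226463, minus strand), the paralog often linked to non-dividing cells, varied more between libraries. Vehicle clone4_1 and clone4_2 had 33.0 and 33.3 CPM and vehicle clone8_1 58.4 CPM, and tamoxifen clone4_1, clone4_2, clone8_1 and clone8_2 had 54.3, 65.9, 26.8 and 52.7 CPM. The lowest value of all was thus a tamoxifen library. The log2 fold change of Ezh1 was 0.26 ± 0.32 (SE; 95% interval -0.44 to 0.97; adjusted p = 0.865, edgeR). It was 0.087 without tamoxifen clone4_2, 0.10 without vehicle clone4_1 and 0.13 without vehicle clone4_2, and it was 0.47 without tamoxifen clone8_1 and 0.58 without vehicle clone8_1.

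Eed (ENSMUSG00000030619, chromosome 7, 89954654 to 89980983, minus strand) had the estimate nearest to 0, at 0.020 ± 0.20 (SE; 95% interval -0.43 to 0.47; adjusted p = 0.988, edgeR). It had 164, 159 and 259 CPM in vehicle and 194, 195, 173 and 225 CPM in tamoxifen libraries, in the same order of clones. Vehicle clone8_1 was the highest of the 7. Suz12 (ENSMUSG00000017548, chromosome 11, 79993106 to 80034123, plus strand) ranged from 96.3 to 173 CPM in vehicle and from 102 to 222 CPM in tamoxifen libraries, and its log2 fold change was 0.13 ± 0.28 (SE; 95% interval -0.50 to 0.76). Leaving out vehicle clone4_1 gave -0.084 for Suz12 and leaving out tamoxifen clone8_1 gave -0.13. For Eed the sign likewise turned without vehicle clone4_1 (-0.11), vehicle clone4_2 (-0.11) or tamoxifen clone8_2 (-0.048).

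The accessory PRC2 genes Jarid2 and Mtf2 had the highest counts. Jarid2 (ENSMUSG00000038518, chromosome 13, 44729474 to 44921643, plus strand), which helps to recruit PRC2 and tune its activity, had 877, 1041 and 916 CPM in vehicle and 836, 1111, 722 and 774 CPM in tamoxifen libraries. The tamoxifen values lay on both sides of the vehicle values. Its log2 fold change was -0.13 ± 0.18 (SE; 95% interval -0.53 to 0.26; adjusted p = 0.879, edgeR). Mtf2 (ENSMUSG00000029267, chromosome 5, 108065674 to 108109004, plus strand), a Polycomb-like protein that binds CpG-rich DNA, had 584, 537 and 581 CPM in vehicle and 521, 484, 601 and 564 CPM in tamoxifen libraries. Its coefficient of variation over the 7 libraries was 7.44%, the lowest of the 10 genes, where the median over all genes tested was 32.8%. That median is not matched for level, since the median level of all genes tested was 9.71 CPM. The interval of its log2 fold change of -0.064 ran from -0.39 to 0.26.

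Of the PRC1 genes, Rnf2 (ENSMUSG00000026484, chromosome 1, 151458004 to 151500955, minus strand) had the smallest p of the 10. The vehicle libraries clone4_1, clone4_2 and clone8_1 had 89.1, 112 and 108 CPM, against 81.5, 88.3, 71.8 and 97.4 CPM in tamoxifen clone4_1, clone4_2, clone8_1 and clone8_2. All tamoxifen libraries except clone8_2 were under every vehicle library. The log2 fold change was -0.28 ± 0.17 (SE; 95% interval -0.66 to 0.093; unadjusted p = 0.125, adjusted p = 0.799, edgeR). It stayed negative in all 14 alternatives, from -0.39 to -0.18, and 0 of them gave an unadjusted p under 0.05. Kdm2b (ENSMUSG00000029475, chromosome 5, 122870665 to 122989823, minus strand) had 73.3, 81.9 and 83.5 CPM in vehicle and 70.5, 71.9, 60.0 and 80.4 CPM in tamoxifen libraries. Its log2 fold change was -0.17 ± 0.16 (SE; 95% interval -0.53 to 0.19). As for Rnf2, tamoxifen clone8_1 was the lowest library and tamoxifen clone8_2 lay inside the vehicle range.

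Ring1 (ENSMUSG00000024325, chromosome 17, 34020792 to 34024680, minus strand) was the most variable, with a coefficient of variation of 61.2%. Vehicle clone4_1, clone4_2 and clone8_1 had 8.29, 5.36 and 2.97 CPM, from 334, 172 and 122 counts. In tamoxifen clone4_1, clone4_2, clone8_1 and clone8_2 it had 4.03, 3.88, 14.9 and 10.6 CPM, from 170, 90, 413 and 437 counts. Both tamoxifen libraries of clone 8 were above all others, and both of clone 4 were inside the vehicle range. The log2 fold change of 0.59 ± 0.54 (SE) had a 95% interval from -0.62 to 1.80, the widest of the 10. Single libraries moved this estimate: it was 0.16 without tamoxifen clone8_1, 0.28 without vehicle clone8_1 and 0.99 without vehicle clone4_1. With clone as a term it was 0.20. Pcgf6 (ENSMUSG00000025050, chromosome 19, 47033617 to 47050906, minus strand) had 17.4, 16.4 and 10.4 CPM in vehicle and 11.2, 13.7, 19.6 and 18.02 CPM in tamoxifen libraries. The interval of its log2 fold change of 0.086 ran from -0.54 to 0.72, and the estimate was -0.12 without vehicle clone8_1 and -0.040 without tamoxifen clone8_1.

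**Figure D3:**
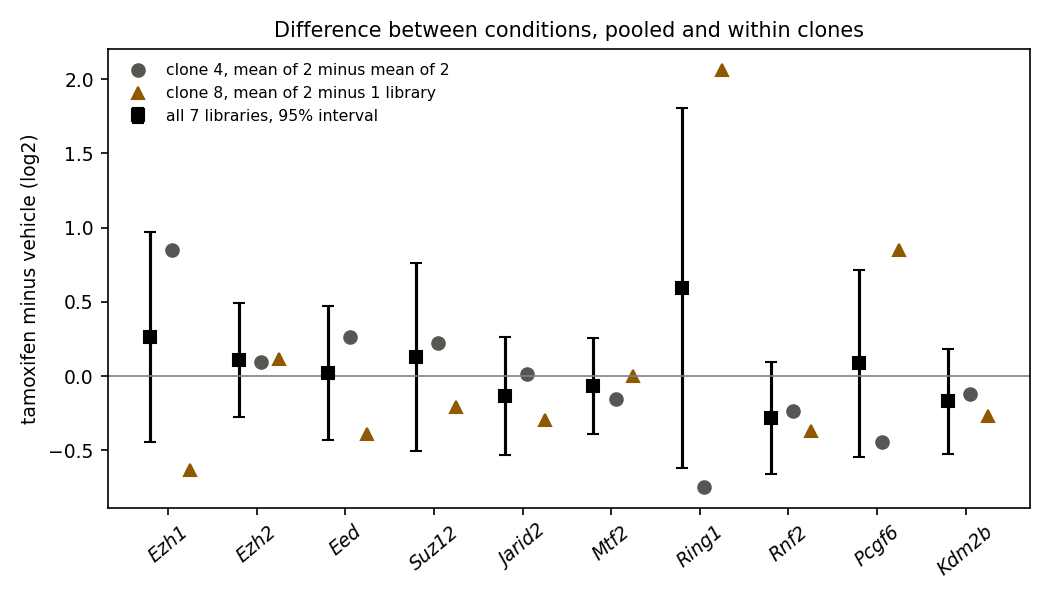
Difference between tamoxifen and vehicle on the log2 scale for each gene. Black squares are edgeR log2 fold changes over all 7 libraries with 95% intervals, grey circles the difference of mean log2 CPM within clone 4 (2 against 2 libraries) and brown triangles that within clone 8 (2 against 1). Every interval includes 0, and the circles and triangles lie furthest apart, on opposite sides of 0, for Ezh1 (0.85 and -0.64), Ring1 (-0.75 and 2.06) and Pcgf6 (-0.44 and 0.85).

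Whether the clones responded alike was tested as the interaction of clone and condition, which rests on the 1 vehicle library of clone 8. After adjustment 0 of 10 genes were called, where 3.16% of all genes were. At an unadjusted p under 0.05 there were 4 of 10 (Ezh1, Eed, Ring1 and Pcgf6), against 14.8% of all genes. For Ring1 the difference of mean log2 CPM was -0.75 within clone 4 and 2.06 within clone 8, and the interaction was 2.89 ± 0.67 (SE; adjusted p = 0.0626, edgeR). Pcgf6 went the same way, at -0.44 within clone 4 and 0.85 within clone 8 (adjusted p = 0.241). Ezh1 went the other way, at 0.85 within clone 4 and -0.64 within clone 8 (adjusted p = 0.230), as did Eed at 0.27 and -0.39 (adjusted p = 0.330). In counts without a filter on low values, the interaction was called for Ezh1 and Ring1. That setting takes in all 28364 genes with a count in any library, and the number it called is given at the end. Without tamoxifen clone8_2, which leaves 1 library in each arm of clone 8, the interaction of Ezh1 was -1.98. The other 6 genes had interactions between -0.31 and 0.16, with unadjusted p-values from 0.292 to 0.933.

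Within clone 4 alone, with 2 libraries a group, 0 of 10 genes were called, as were 0% of 16060 genes tested. Ezh1 had the smallest p there, at 0.85 ± 0.20 on the log2 scale (SE; unadjusted p = 0.00353, adjusted p = 0.550, edgeR), and it was 1 of 10 at an unadjusted p under 0.05, where 7.87% of all genes passed. Both its tamoxifen libraries (54.3 and 65.9 CPM) were above both vehicle libraries (33.0 and 33.3 CPM). Without a filter on low counts it was called in this fit, among 217 genes. In clone 8 both tamoxifen libraries (26.8 and 52.7 CPM) were under the vehicle library (58.4 CPM).

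Library by library, tamoxifen clone8_1 held the extremes. It had the highest of the 7 values for 5 of the 10 genes and the lowest for 4. How often this library was at an extreme over all genes was not counted, so these counts cannot be read as particular to the 10. It was the highest for Suz12 (0.69 above the mean of the gene on the log2 scale), Ring1 (1.27), Pcgf6 (0.40), Ezh2 (0.24) and Mtf2 (0.12). Ezh1 (-0.72), Jarid2 (-0.30), Rnf2 (-0.35) and Kdm2b (-0.30) were lowest in it. Vehicle clone8_1 was the highest for Eed (0.42) and Kdm2b (0.17) and the lowest for Ring1 (-1.03) and Pcgf6 (-0.51). With both libraries left out, 0 of 10 genes were called, where 2 of all 16877 genes tested were. At an unadjusted p under 0.05 there were 2 of 10, where all genes gave 7.25%. They were Ezh1 (log2 fold change 0.79, unadjusted p = 0.00202) and Eed (0.34, unadjusted p = 0.0346), with adjusted p-values from 0.578 upwards in edgeR. Ring1 was then at -0.14 and Pcgf6 at -0.24.

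**Figure D4:**
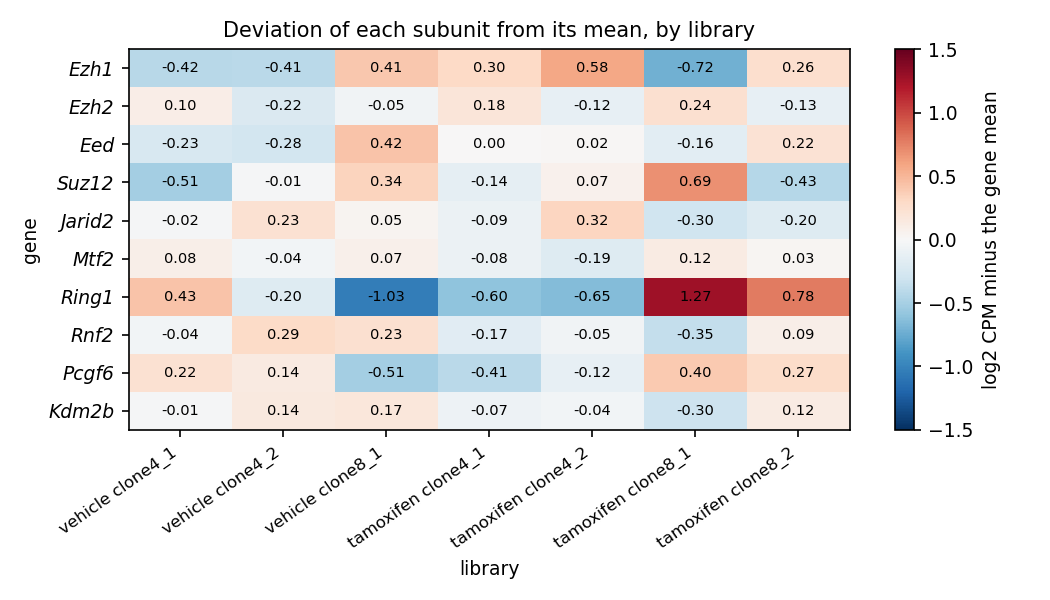
Log2 CPM of each gene minus its mean over the 7 libraries (rows genes, columns libraries, red above and blue below the mean, values printed). Ring1 spans -1.03 in vehicle clone8_1 to 1.27 in tamoxifen clone8_1, and Ezh1 spans -0.72 in tamoxifen clone8_1 to 0.58 in tamoxifen clone4_2.

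For each gene the gene with the most similar profile was sought among 8050 other genes (8051 for Ring1) with a mean of at least 10 CPM, by the mean absolute difference of gene-centred log2 CPM over the 7 libraries. The nearest was Bsg for Mtf2 (0.031), Dhx15 for Rnf2 (0.033) and Hspa4 for Kdm2b (0.034), where the median distances to all candidates were 0.24, 0.26 and 0.24. As the smallest of 8050 distances over 7 libraries, each such value lies under the median by construction. Lyar was nearest to Eed (0.048), Trappc8 to Suz12 (0.048), Fbxw9 to Ezh2 (0.060) and Ppp6r3 to Jarid2 (0.065). Wee1 was nearest to Pcgf6 (0.091) and Ceacam10 to Ezh1 (0.11). Zfp622 was nearest to Ring1 (0.26), the largest of these distances, where the median distance of Ring1 to all candidates was also the largest (0.74). None of these 10 neighbours was another of the Polycomb genes described here. Among 8050 candidates that outcome was likely in advance, and Ring1, under 10 CPM, could not be a neighbour. It therefore does not say whether these genes vary together.

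In the other subunits of the system no gene was called. These lists, like all lists here, were chosen with earlier results of these data known. All 7 further PRC2 genes were tested, 3 were higher and 4 lower with tamoxifen, and 0 were called (median log2 fold change -0.047). The most abundant were Rbbp7 at 484 ± 101 RPKM, Aebp2 at 59.4 ± 5.20 RPKM and Rbbp4 at 32.1 ± 1.90 RPKM (SD, n = 7). Rbbp7 and Rbbp4 are histone chaperones shared with other complexes, and Aebp2 is a partner of Jarid2 in PRC2. Of 16 further PRC1 genes, all tested, 7 were higher and 9 lower and 0 were called (median -0.047). Cbx7, which reads methylated H3K27, led them per length at 24.3 ± 6.69 RPKM, followed by Pcgf1 at 20.2 ± 5.88 RPKM, the partner of Kdm2b, and Pcgf5 at 9.24 ± 1.83 RPKM (SD, n = 7). Of 12 partners of variant PRC1, 6 were higher and 6 lower and 0 were called (median -0.031). Hdac1, a histone deacetylase, had 178 ± 31.0 RPKM, the adaptor Wdr5 96.7 ± 11.1 RPKM and the deubiquitinase Usp7 50.6 ± 6.66 RPKM (SD, n = 7). In these 3 lists together no gene had an unadjusted p under 0.05 or groups without overlap.

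Both H3K27 demethylases, the enzymes that remove the PRC2 mark, had groups that did not overlap, and in opposite directions. Of 6 genes that remove Polycomb marks 5 were tested, 2 were higher and 3 lower, and 0 were called after adjustment. There was 1 without overlap upwards (against 3.71% of all genes) and 1 downwards (against 4.74%). Kdm6b (ENSMUSG00000018476, chromosome 11, 69398508 to 69413675, minus strand), also called Jmjd3, had 61.6, 63.7 and 38.1 CPM in the 3 vehicle libraries and 102, 92.1, 132 and 78.0 CPM in tamoxifen clone4_1, clone4_2, clone8_1 and clone8_2. Every tamoxifen library was above every vehicle library. The fitted log2 change was 0.89 ± 0.24 (SE; 95% interval 0.35 to 1.43; unadjusted p = 0.00419, adjusted p = 0.794, edgeR), with differences of 0.63 within clone 4 and 1.41 within clone 8. The estimate was positive with an unadjusted p under 0.05 in all 14 alternatives, from 0.53 to 1.02, and the adjusted p ranged from 0.195 to 0.961.

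Kdm6a (ENSMUSG00000037369, chromosome X, 18162575 to 18279936, plus strand), also called Utx, had 74.0, 62.1 and 76.7 CPM in vehicle and 51.3, 59.6, 33.4 and 45.0 CPM in tamoxifen libraries. Every tamoxifen library was below every vehicle library, by a narrow margin in tamoxifen clone4_2. The log2 fold change was -0.58 ± 0.21 (SE; 95% interval -1.05 to -0.11; unadjusted p = 0.0197, adjusted p = 0.794, edgeR), with differences of -0.29 within clone 4 and -0.98 within clone 8. The estimate was negative in all 14 alternatives, from -0.73 to -0.39, and 12 of them gave an unadjusted p under 0.05. Without both libraries numbered clone8_1 it was -0.39 (unadjusted p = 0.0589, edgeR). Kdm6a is X-linked, and Xist, from the inactive X of female cells, ranged from 69.9 to 124 CPM in vehicle and from 37.8 to 110 CPM in tamoxifen libraries. The Y-linked gene Ddx3y ranged from 31.0 to 57.3 CPM in vehicle and from 28.2 to 90.4 CPM in tamoxifen libraries. The part of the sex mix of the pools in this difference was not tested. Bap1, which removes the PRC1 mark, had 22.7 ± 4.30 RPKM (SD, n = 7) and a log2 fold change of -0.17 ± 0.21 (SE).

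Trithorax genes, which counteract Polycomb through methylation of H3K4, gave 4 higher and 4 lower of 8 tested, and 0 called. Of the 8, 1 had groups without overlap, upwards (against 3.71% of all genes). Another 1 had an unadjusted p under 0.05, downwards (against 3.28% of all genes, edgeR). Kmt2b, a methyltransferase of bivalent promoters, had 13.0 ± 0.626 CPM in vehicle (SD, n = 3) and 17.96 ± 3.01 CPM in tamoxifen libraries (SD, n = 4), without overlap. It differed by 0.47 ± 0.22 on the log2 scale (SE; unadjusted p = 0.0601, adjusted p = 0.794, edgeR). Men1, a cofactor of that enzyme, had 34.8 ± 9.77 CPM in vehicle (SD, n = 3) and 24.0 ± 2.93 CPM in tamoxifen libraries (SD, n = 4), with overlap and a difference of -0.54 ± 0.23 on the log2 scale (SE; unadjusted p = 0.0387, adjusted p = 0.794, edgeR). Without vehicle clone4_2 its estimate was -0.30. The most abundant per length were Dpy30 (366 ± 132 RPKM), Ash2l (231 ± 29.2 RPKM) and Rbbp5 (15.1 ± 2.25 RPKM; SD, n = 7). Dpy30 has a typical transcript of 694 nt, in the class that was low in vehicle clone8_1, where it had 70.0 CPM against 196 to 319 CPM in the other 6 libraries.

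Many genes that PRC2 classically silences were at or near 0 here. Of 24 such developmental regulators 13 were not tested, each with at most 0.405 CPM in any library, and 4 of these (Hoxa9, Hoxb1, Lhx5 and Neurog2) had 0 counts in all 7. In the whole count table, 16248 of 52636 genes were tested and 28364 had any count, so low counts were not particular to this list. Of the 11 tested, 7 were higher and 4 lower with tamoxifen, the median log2 fold change was 0.45 and 0 were called. Of the 11, 2 had an unadjusted p under 0.05, both higher with tamoxifen, where 2.69% of all genes were. Gsc (ENSMUSG00000021095, chromosome 12, 104471209 to 104473330, minus strand), a homeobox gene of the gastrula organizer, had 8.39, 7.07 and 9.65 CPM in vehicle and 13.2, 15.6, 20.4 and 12.4 CPM in tamoxifen libraries, without overlap. It differed by 0.88 ± 0.27 on the log2 scale (SE; unadjusted p = 0.00823, adjusted p = 0.794, edgeR), and it ranged from 0.71 to 0.98 over 14 alternatives. The other was Sox17, which is also among the primitive endoderm markers, with 2.96 ± 2.30 CPM in vehicle (SD, n = 3) and 17.7 ± 7.93 CPM in tamoxifen libraries (SD, n = 4) and a log2 fold change of 2.58 ± 0.75 (SE; adjusted p = 0.794, edgeR). Cdx2 (205 ± 31.8 RPKM) and Gata6 (24.7 ± 9.87 RPKM; SD, n = 7) were the most abundant targets, and they mark trophectoderm and primitive endoderm, the lineages whose markers are described above.

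**Figure D5:**
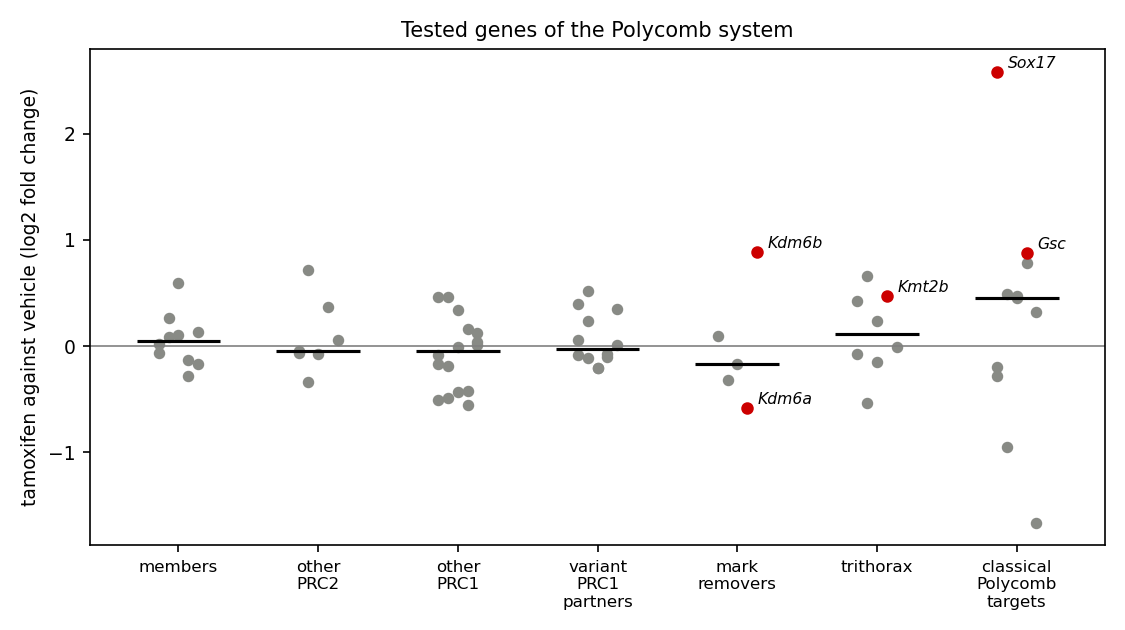
Log2 fold change of tamoxifen against vehicle (edgeR) for every tested gene of the 10 Polycomb subunits (members) and 6 related lists, with lines at the list medians. Red points are genes whose groups did not overlap (Kdm6b, Kdm6a, Kmt2b, Gsc and Sox17), and the 10 subunits have none. Over all 16248 genes tested, 8.45% did not overlap.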

How the data were processed

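RNA was measured in 3 vehicle and 4 tamoxifen libraries, each made from 2 ng of RNA of pooled ICMs with a low-input amplification kit, per the labels' protocols. The authors deposited raw counts per Ensembl gene. Reads were processed with bcl2fastq 2.19.1 and STAR 2.5.3a on build mm10, per the submitters' processing notes; the counting program, annotation, strand setting and handling of duplicates are not given in the sources used here, so reads of overlapping genes cannot be told apart (Mtf2 overlaps Tmed5 by 2639 bp on the other strand and Kdm2b overlaps Rnf34 by 627 bp). Other members overlap annotated genes too. Suz12 overlaps Gm26563 by 12515 bp and Ezh2 overlaps Gm26625 by 5039 bp, both on the other strand. Rnf2 overlaps Gm36527 by 3029 bp on the same strand. Amplified libraries without molecular identifiers do not count independent molecules.

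Of 52636 gene IDs 52489 matched GENCODE M21 (GRCm38), the source of symbols, positions and transcript lengths (the median over protein-coding transcripts of the basic set where a gene has any). Counts were tested in R 4.3.3 with edgeR 4.0.16 (TMM scaling, filterByExpr by group, quasi-likelihood fit on condition alone) and Benjamini-Hochberg adjustment over all 16248 tested genes, with a threshold of 0.05. DESeq2 1.42.0 was an alternative. Log2 CPM used a prior count of 2. Standard errors were derived from the F statistic of that test, and 95% intervals from them. The fit was tested on simulated counts, with less spread between libraries than in these data and with changes larger than the estimates of the 10 genes. That test therefore does not say which changes the fit can detect here. Named were the 10 members, their nearest genes in profile, and of 6 related lists the 3 most abundant per length and every gene with an unadjusted p under 0.05 or groups that do not overlap; other genes named for being at 0 or for the cell type check were picked after their values were seen. The members and lists were chosen with earlier results of these data known.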

Additional observations from a re-analysis of the deposited data

How the results depend on the processing

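Under 14 alternatives to the comparison of conditions, 0 of the 10 Polycomb genes were called in each. Over all genes DESeq2 called 4, and leaving out both libraries numbered clone8_1 gave 2. Without those libraries the sign turned for Ring1 (-0.14), Pcgf6 (-0.24), Pcgf5 (-0.18), Hdac1 (0.18), Bap1 (0.097), Ash2l (0.13) and the median of the 10 genes (-0.076), and with clone as a term for Pcgf5 (-0.0083). The cause was not tested.

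Leaving out 1 library at a time, log2 fold changes crossed 0 for Eed (-0.11 to 0.28), Suz12 (-0.13 to 0.34), Pcgf6 (-0.12 to 0.21), the median of the 10 genes (-0.071 to 0.048), Aebp2 (-0.14 to 0.015), Cbx7 (-0.16 to 0.24), Pcgf1 (-0.47 to 0.095), Pcgf5 (-0.14 to 0.23), Hdac1 (-0.20 to 0.10), Wdr5 (-0.25 to 0.0061), Usp7 (-0.058 to 0.14) and Ash2l (-0.18 to 0.091). Within clone 4 they crossed 0 for Ezh2 (-0.071 to 0.25), Suz12 (-0.027 to 0.48) and Jarid2 (-0.21 to 0.21), and the interaction did so for Ezh2 (-0.16 to 0.21), Suz12 (-0.97 to 0.15), Rnf2 (-0.33 to 0.10) and Kdm2b (-0.35 to 0.073). Where this left 1 library in an arm, that library was assumed to vary like the others.

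Within clone 4 the genes called ranged from 0 to 309 when 1 library was left out (250 without vehicle clone4_1, 309 without vehicle clone4_2), and were 217 without a filter on low counts, 1 of them a Polycomb gene (Ezh1). The interaction called 514 genes, 991 without that filter with 2 Polycomb genes among them, and 52 to 695 with 1 library left out (107 without tamoxifen clone4_1, 52 without tamoxifen clone4_2, 267 without vehicle clone4_1), with 0 to 1 Polycomb genes. The interaction could not be fitted without vehicle clone8_1.

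Conditions share replicate numbers, which the labels tie to no litter or day. Deviations from the group means correlated at 0.0078, 0.021 and -0.068 between libraries of the same number. Between libraries of different numbers they correlated from -0.085 to 0.062. As few libraries share a number, these values cannot decide whether the numbers pair them. With the replicate number as a block, 0 genes and 0 Polycomb genes were called, and the estimate was -0.014 for Eed, 0.011 for Aebp2, -0.013 for Cbx7 and -0.0062 for the median of the 10 genes. Kdm6a was at -0.59 with the block, with an unadjusted p of 0.0728 (edgeR).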
